A study of Mus musculus with 8 samples.

Results

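The miR-143/miR-145 cluster of the mouse was followed through its 4 listed mature miRNAs, mmu-miR-143-3p, mmu-miR-143-5p, mmu-miR-145a-5p and mmu-miR-145a-3p, out of 1915 in the count table. The rows were picked by name, with the counts of all 8 libraries already known and miR-143-3p already seen to differ between genotypes. The members were thus chosen on the counts reported here. Their levels and fold changes are given as a description, with no test and no p-value. Of the 4, miR-143-3p and both arms of miR-145a passed the filter on low counts, and miR-143-5p had no count in any library.

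The libraries are small RNA from mouse embryonic stem cells of 129/Ola background, in 4 groups of 2. The induced AGO1 line (A and B) is an Ago2 knockout line that carries an inducible AGO1 transgene, grown with doxycycline at 1 µg/mL, and the uninduced AGO1 line (A and B) is the same line without the drug. Both were kept in puromycin at 2 µg/mL and are named after knockout line 1, and a single line name covers all 4 libraries, so the group may stand for 1 clone. The Ago2 knockout group pairs knockout lines 1 and 2, which lack AGO2, and the wild type group is E14 (A and B), a line from a blastocyst. All were grown in LIF and serum on gelatine. Whether A and B are separate cultures is not given in the sources used here, so the spread between them may be technical. No value of Ago2 or AGO1 RNA was analysed here, and the genotypes rest on the labels.

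miR-143 and miR-145 are processed from hairpins of a shared primary transcript. They are best known from smooth muscle and fibroblasts, where they hold vascular smooth muscle cells in their contractile state, and in human embryonic stem cells miR-145 is known to repress the pluripotency factors OCT4, SOX2 and KLF4. Each hairpin gives a duplex of a 5p and a 3p strand. An Argonaute protein keeps one strand as the mature miRNA, and the other is usually degraded. AGO1 and AGO2 are both Argonautes that bind miRNAs, and AGO2 is the one known for slicing its targets.

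In GENCODE vM21 on GRCm38, the same build as the mm10 that the submitters name, Mir143 lies on the minus strand of chromosome 18 from 61649196 to 61649258 and Mir145a from 61647825 to 61647894. The hairpins are 1301 bases apart. No other annotated gene overlaps either of them. The long noncoding RNA gene Carmn, on the same strand from 61649625 to 61665537, ends 366 bases before Mir143 in the direction of transcription. Mir145b, a further hairpin of that chromosome whose miRNA miR-145b is listed in the table, had 0 counts in all 8 libraries.

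Library totals ran from 163467 counts in knockout line 2 to 1326638 in induced A. Levels are in CPM, the count divided by the library's total times its TMM factor and brought to a round total. The TMM factor, here 0.881 to 1.22, centres most miRNAs on no change. CPM are relative, so a change of all miRNAs together would not show. Where a miRNA has 0 counts, the limit taken is 3, which equals between 2.57 CPM in induced A and 15.1 CPM in knockout line 2. Counting intervals are 95% exact Poisson or Clopper-Pearson intervals. Such intervals, and the limit for a count of 0, take in the error of counting alone. No molecular identifiers tell copied reads from separate molecules, so even that error may be larger than the intervals show. miRNAs of pluripotent cells (the miR-290 cluster and the cluster of miR-302 and miR-367) held 25.5 to 30.8% of counts in every library. This share rests on the miR-290 cluster, whose miR-295-3p had a mean of 150990 CPM over all libraries. The most abundant row of the other cluster, miR-302d-3p, had 115 CPM. Single members of these clusters differed between groups, as did many of all tested miRNAs. Among them, miR-291b-3p was at 0 CPM in the knockout and 28.8 ± 1.26 CPM in wild type. In bulk RNA, fewer cells carrying a miRNA and less of it per cell cannot be told apart.

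miR-143-3p carried most of the cluster's counts in every library and differed most of the measured members between the groups. It had 1942 and 1781 CPM in the induced libraries (A, then B), 252 and 290.99 CPM in the uninduced ones, 352 and 347 CPM in the knockout lines (1, then 2), and 3142 and 3689 CPM in the wild type ones. The libraries thus fell into a high set, wild type and induced, and a low set, knockout and uninduced, with no overlap between the sets. The underlying counts were 2270 and 1787 in the induced line, 189 and 88 in the uninduced line, 141 and 69 in the knockout lines, and 2648 and 4101 in wild type. By count, miR-143-3p stood at place 48 and 53 among the miRNAs of the induced libraries and at 139 and 134 in the uninduced ones. Its place was 115 and 117 in the knockout libraries and 41 and 32 in wild type.

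**Figure D1:**
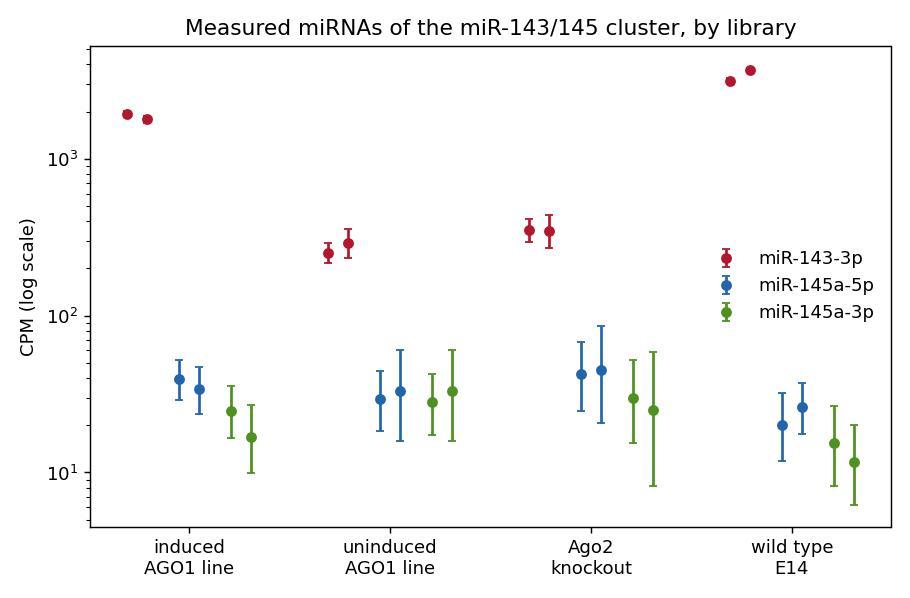
CPM on a log axis of the 3 measured miRNAs of the cluster, each point a library and each bar its 95% exact Poisson interval, with the groups from induced AGO1 line at the left to wild type at the right. miR-143-3p lies between 252 and 352 CPM in the uninduced and knockout libraries and from 1781 to 3689 CPM in the others, while both miR-145a arms stay between 11.7 and 45.3 CPM in all 8.

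The order of miR-143-3p by group mean was wild type, induced, knockout and uninduced. The knockout lines averaged 349 ± 3.29 CPM, and wild type averaged 3415 ± 387 CPM (SD, n = 2 each). The log2 fold change of knockout over wild type was -3.29 ± 0.20 (edgeR estimate and derived SE), a level of 10.2% of the wild type mean. The difference was many times the spread within either group, and none of the 4 pairs of a knockout and a wild type library had overlapping counting intervals. The intervals of the wild type libraries did not overlap each other either (3023 to 3264 CPM in A, 3577 to 3804 CPM in B). Separate counting intervals thus also occurred within a group. Among the 475 tested miRNAs this was the 25th lowest fold change. The median over all of them was -0.12, and the median size of change, regardless of sign, was 1.18 on the log2 scale.

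With doxycycline the level was several times higher. The induced line averaged 1861 ± 114 CPM, and the uninduced line averaged 271 ± 27.9 CPM (SD, n = 2 each). The log2 fold change of induced over uninduced was 2.78 ± 0.20, a 6.88-fold difference and the 26th highest of 475, where the median was 0.03 and the median size of change 0.68. Again the groups did not overlap, nor did the counting intervals of any of the 4 pairs of libraries. How many of the 475 tested miRNAs had groups without overlap was not counted, for this or the other comparisons.

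The induced line did not reach the wild type level. Its mean was 54.5% of that of wild type, with a log2 fold change of -0.88 ± 0.18, and the libraries of the groups did not overlap. The uninduced line, at 7.94% of the wild type mean, had a log2 fold change of -3.66 ± 0.20 over wild type. Uninduced and knockout were neighbours in the order. The log2 fold change of uninduced over knockout was -0.37 ± 0.19. The libraries of these groups did not overlap in CPM either, with both uninduced ones below both knockout ones. The counting intervals overlapped in 3 of the 4 pairs of libraries, and were separate for knockout line 1 and uninduced A. A lower level in the uninduced line was thus neither established nor excluded at this depth. These comparisons share libraries (wild type in 3 of them, the uninduced line in 3, the knockout in 2), so their values are not independent of each other.

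**Figure D2:**
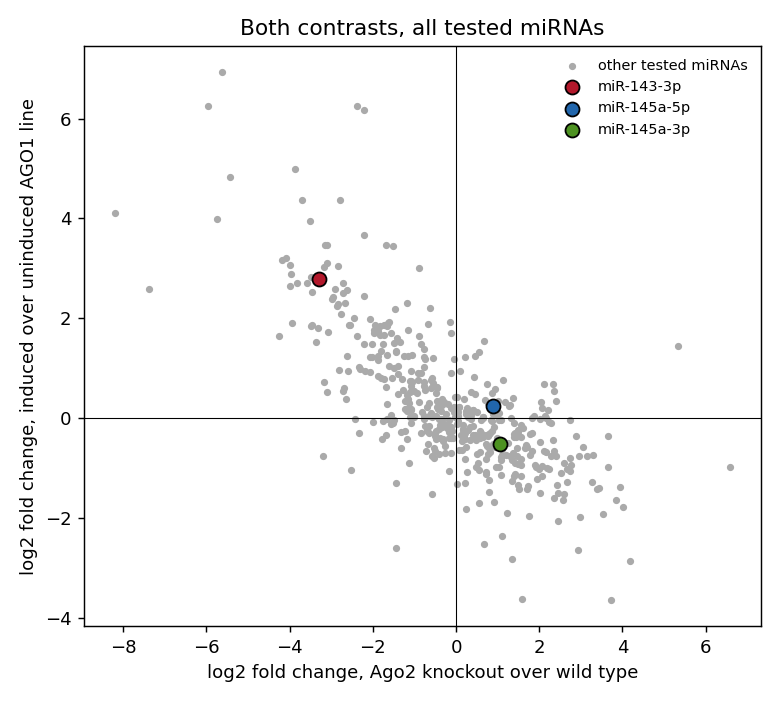
Log2 fold change of knockout over wild type (horizontal) against induced over uninduced AGO1 line (vertical), each point 1 of 475 tested miRNAs, with the measured members coloured. miR-143-3p lies at -3.29 and 2.78, at the upper left among many other miRNAs, while miR-145a-5p lies at 0.90 and 0.26 and miR-145a-3p at 1.06 and -0.50, near the middle of the cloud.

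Lower in the knockout and higher with induction was not particular to miR-143-3p. At a 4-fold difference, a size picked after the values were seen, 71 of 475 tested miRNAs were lower in the knockout than in wild type and 46 were higher in the induced than in the uninduced line. The 40 that met both included miR-143-3p. As a background for all counts of calls below, 25.5% of tested miRNAs were called higher and 32.2% lower in knockout against wild type (edgeR quasi-likelihood test, adjusted p under 0.05), 21.1% higher and 7.79% lower in induced against uninduced, and 19.2% higher and 19.8% lower in induced against wild type.

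miR-145a-5p, the strand of the second hairpin that is generally taken as its guide, was scarce and did not follow miR-143-3p. It had 39.3 and 33.9 CPM in the induced libraries, 29.3 and 33.1 CPM in the uninduced ones, 42.4 and 45.3 CPM in the knockout lines, and 20.2 and 26.1 CPM in the wild type ones. The values lay highest in the knockout and lowest in wild type, and the largest was 2.24 times the smallest. They rest on 9 to 46 counts each, and the counting intervals overlapped in all 28 pairs of libraries. The group means were 36.6 ± 3.86 CPM in the induced line, 31.2 ± 2.67 in the uninduced line, 43.8 ± 2.03 in the knockout and 23.1 ± 4.18 in wild type (SD, n = 2 each).

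For miR-145a-5p the log2 fold change was 0.90 ± 0.39 for knockout over wild type, 0.26 ± 0.35 for induced over uninduced and 0.65 ± 0.33 for induced over wild type. The first and the last had the sign opposite to that of miR-143-3p. Each pair of groups was separate in CPM, but by less than the counting error of single libraries. Separate groups were thus not particular to miR-143-3p, and their share over all tested miRNAs was not counted. The log2 fold change was -0.50 ± 0.40 for uninduced over knockout and 0.39 ± 0.37 for uninduced over wild type.

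miR-145a-3p, the partner strand, was in the same low range. It had 24.8 and 16.9 CPM in the induced libraries, 28.0 and 33.1 CPM in the uninduced ones, 29.9 and 25.2 CPM in the knockout lines, and 15.4 and 11.7 CPM in the wild type ones, from 5 to 29 counts a library. Wild type was again lowest, the uninduced and knockout ranges overlapped, and the counting intervals overlapped in all 28 pairs. Log2 fold changes were 1.06 ± 0.49 for knockout over wild type, -0.50 ± 0.41 for induced over uninduced and 0.64 ± 0.41 for induced over wild type. For uninduced over knockout and uninduced over wild type they were 0.09 ± 0.47 and 1.15 ± 0.44.

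Within a library the makeup of the cluster needs no scaling factor, and it split the libraries as the level of miR-143-3p did. miR-143-3p took 97.0 ± 0.30% of the cluster's counts in the induced line, 81.5 ± 0.01% in the uninduced line, 83.0 ± 0.14% in the knockout and 98.9 ± 0.07% in wild type (SD, n = 2 each). The SDs between libraries were smaller than counting error, since the exact binomial interval was 73.3 to 90.5% in knockout line 2 and 72.9 to 88.3% in uninduced B. In wild type they were 98.4 to 99.2% for A and 98.6 to 99.3% for B. miR-145a-5p took 1.91 ± 0.08% of cluster counts in the induced line, 9.37 ± 0.16% in the uninduced line, 10.4 ± 0.60% in the knockout and 0.67 ± 0.05% in wild type.

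Expressed as a ratio, there were 49.3 and 52.6 miR-143-3p counts for each miR-145a-5p count in induced A and B, and 8.59 and 8.80 in uninduced A and B. The knockout lines had 8.29 and 7.67, and wild type A and B had 156 and 141. The knockout and uninduced ratios lay side by side, with intervals of 3.81 to 17.5 in knockout line 2 and 5.51 to 14.0 in uninduced A. The induced ratios, with intervals of 36.9 to 67.6 and 37.5 to 76.1, lay above these and below the wild type ones, whose intervals were 97.1 to 268 and 98.3 to 211. miRNAs differ in how well they are ligated into a library, so the ratio of 2 miRNAs is not their ratio in the cell, while its change between groups is not affected by a fixed difference of that kind.

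**Figure D3:**
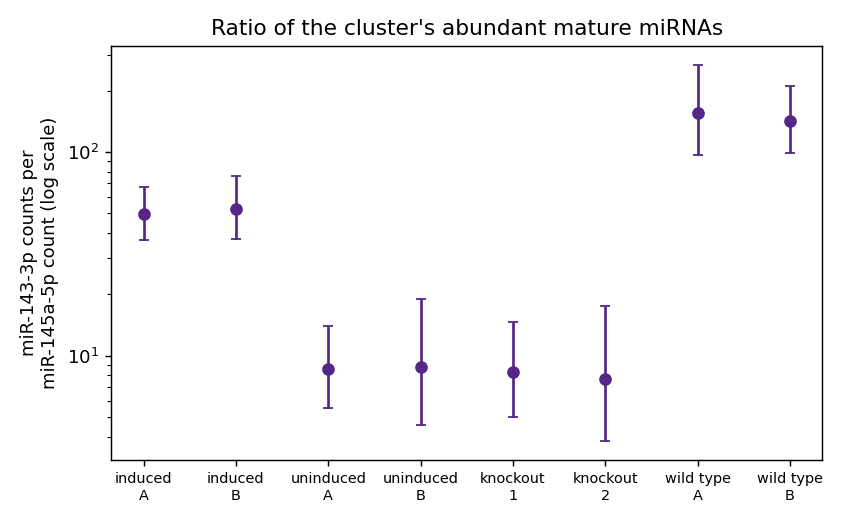
Counts of miR-143-3p for each count of miR-145a-5p on a log axis, by library, with 95% intervals from the exact binomial interval of the share. The ratio is between 7.67 and 8.80 in the 4 uninduced and knockout libraries, 49.3 and 52.6 in the induced ones, and 156 and 141 in wild type.

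The arms of the hairpins differed in balance. For miR-145a the 5p arm held 184 of 304 hairpin counts over all libraries, 60.5% with a Clopper-Pearson interval of 54.8 to 66.1%. By group the 5p share was 64.0 ± 3.77% in the induced line, 50.6 ± 0.82% in the uninduced line, 61.5 ± 4.01% in the knockout and 62.9 ± 8.75% in wild type (SD, n = 2 each). The interval of every library, the narrowest being 49.4 to 72.4% in induced A, took in the pooled 60.5%. Knockout line 2, with 14 hairpin counts, gave the widest, 35.1 to 87.2%. The pool holds each library's own counts and the intervals are wide, so this says little about groups. A difference in arm balance between groups was not tested.

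For miR-143 the counts were one-sided: 11293 for the 3p arm and 0 for the 5p arm over all libraries. A count of 0 allows a 5p share of up to 0.0266% of the hairpin's counts over the 8 libraries. In single libraries the limit is looser, up to 0.132 and 0.168% in the induced line, 1.59 and 3.41% in the uninduced line, 2.13 and 4.35% in the knockout, and 0.113 and 0.0732% in wild type. Of 749 hairpins with both arms listed, 122 had at least 1000 counts on 1 arm. Of those, 2 had 0 on the other arm, miR-143 and miR-382, a comparison made after the 0 was seen. How the authors' counting treats that row is not given in the sources used here, so the row is described only as listed at 0.

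The miRNAs whose profile over the 8 libraries was nearest to that of miR-143-3p were looked up among 382 others with a mean of at least 20 CPM. Likeness is the root mean square difference between log2(CPM + 1) profiles after each is centred on its own mean, as a description over 8 libraries that share groups. The nearest was miR-107-3p (0.27), then miR-103-3p (0.32), miR-487b-3p (0.34), miR-1983 (0.35) and miR-186-5p (0.37). miR-103-3p had 1412 ± 31.8 CPM in the induced line, 223 ± 2.42 in the uninduced line, 214 ± 53.7 in the knockout and 3448 ± 228 in wild type (SD, n = 2 each). Its knockout and induced levels were below those of miR-143-3p by more than these SDs. miR-186-5p had 1452 ± 86.8, 416 ± 23.9, 343 ± 26.8 and 3425 ± 179 CPM in the same groups.

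The mature sequences of 4 of these 5 in RefSeq (GRCm38.p6) are shown 5′ to 3′ because the nearest pair shares a seed, bases 2 to 8, which is in capitals and sets most target pairing. miR-107-3p lies at chr19:34820700-34820722 on the minus strand. miR-103-3p has the same mature sequence at chr2:131288103-131288125 and chr11:35782447-35782469, both on the plus strand. miR-1983 lies at chr13:21896930-21896950 on the minus strand and miR-186-5p at chr3:157544285-157544306 on the plus strand.
miR-107-3p: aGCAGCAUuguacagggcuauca
miR-103-3p: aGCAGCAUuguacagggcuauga
miR-1983: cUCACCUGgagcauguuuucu
miR-186-5p: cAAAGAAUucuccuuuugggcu
miR-103-3p and miR-107-3p differ by 1 base of 23, G22C from miR-103-3p to miR-107-3p counted from the 5′ end, so short reads of the pair are hard to assign to one of them, and they are better read as 1 neighbour than as 2. miR-1983 and miR-186-5p share neither that seed nor each other's.

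**Figure D4:**
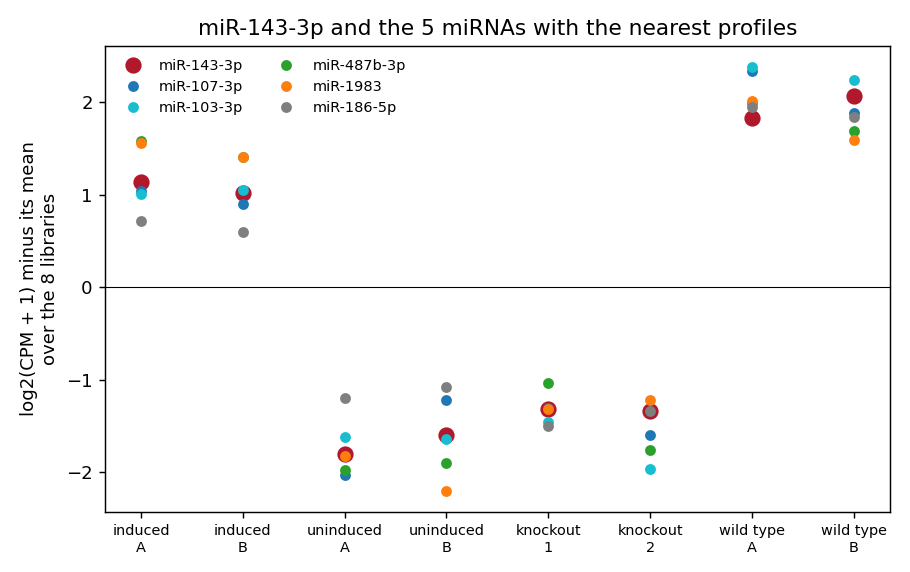
Centred log2(CPM + 1) of miR-143-3p (large points) and of its 5 nearest miRNAs by library. All 6 lie above their own mean in the induced and wild type libraries and below it in the uninduced and knockout libraries.

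The nearest miRNAs to the miR-145a arms were others. For miR-145a-5p they were miR-669a-5p (0.17), miR-669p-5p (0.22) and miR-423-3p (0.22), and for miR-145a-3p they were miR-26b-3p (0.21), miR-379-3p (0.22) and miR-361-3p (0.22). The profiles of the arms rest on 5 to 46 counts a library, so the order of their neighbours is uncertain. It was not checked under another scaling. miR-669a-5p had 370 ± 2.77 CPM in the induced line, 292.5 ± 44.6 in the uninduced line, 397 ± 85.6 in the knockout and 194 ± 54.8 in wild type (SD, n = 2 each). miR-361-3p had 149 ± 8.71, 195 ± 8.97, 189 ± 17.04 and 94.7 ± 9.79 CPM in these groups. None of the 6 is among the 5 nearest to miR-143-3p. This follows largely from the distance used, which takes in the size of changes. Over the 8 libraries miR-145a-5p varied 2.24-fold and miR-145a-3p 2.83-fold, and miR-143-3p varied 14.7-fold.

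Other miRNAs known from smooth muscle were set beside the cluster, from a list drawn up with earlier results known. Of 13 listed, 7 were tested, and the level of all 13 summed to 33691 to 36394 CPM in the induced line, 32792 to 35499 in the uninduced line, 32703 to 38988 in the knockout and 45130 to 52330 in wild type. In the knockout against wild type 3 of the 7 were called lower and 1 higher, with a median log2 fold change of -1.01 against -0.12 over all tested miRNAs. The 3 that fell were miR-27b-3p (log2 fold change -1.01, edgeR adjusted p = 0.00165), miR-24-3p (log2 fold change -2.06, edgeR adjusted p = 0.00111) and miR-23b-3p (log2 fold change -2.58, edgeR adjusted p = 0.00171), which come from the miR-23/27/24 clusters. miR-24-3p fell to 48.8 ± 19.2 CPM in the knockout, against 215 ± 12.9 CPM in wild type (SD, n = 2 each). The knockout level of miR-23b-3p, 16.3 ± 5.41 CPM against 92.2 ± 27.3 CPM in wild type, was near the limit of 3 counts. That limit equals 7.48 CPM in knockout line 1 and 15.1 CPM in knockout line 2. miR-27b-5p, the partner strand of miR-27b-3p, rose (log2 fold change 1.98, edgeR adjusted p = 0.00122). Shares of 3 and 1 in 7 rest on few miRNAs beside the 32.2% and 25.5% of the background.

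In the induced against the uninduced line 2 of the same 7 were called higher and 0 lower, beside a background of 21.1% and 7.79%. In 9 of the 15 alternatives 1 was called lower, and 1 higher and 1 lower were called without TMM factors and with the DESeq2 test. miR-27b-5p, which was higher in the knockout, went against the pair that rose here and missed the threshold narrowly (170 ± 42.2 CPM in the induced line, 342 ± 34.4 CPM in the uninduced line, log2 fold change -1.01, edgeR adjusted p = 0.0523). miR-27b-3p, which fell in the knockout, was not called here (9508 ± 1095 CPM in the induced line, 9158.5 ± 1079 CPM in the uninduced line, log2 fold change 0.05, edgeR adjusted p = 0.871). miR-24-3p rose to 92.0 ± 25.9 CPM in the induced line, against 39.1 ± 0.76 CPM in the uninduced line (SD, n = 2 each, log2 fold change 1.24, edgeR adjusted p = 0.0262), and miR-23b-3p rose to 21.7 ± 1.69 CPM in the induced line, against 6.96 ± 4.19 CPM in the uninduced line (SD, n = 2 each, log2 fold change 1.86, edgeR adjusted p = 0.0388). The uninduced level of miR-23b-3p was near the limit of 3 counts, which equals 3.99 CPM in uninduced A and 9.92 CPM in uninduced B. The calls of miR-24-3p and miR-23b-3p both depended on single libraries. That of miR-24-3p was lost without uninduced A (edgeR adjusted p = 0.151) or B (0.157) or induced A (0.198), and that of miR-23b-3p without uninduced A (0.339) or B (0.0566) or induced A (0.0949) or B (0.139), without TMM factors (0.0504) and with DESeq2 (0.129). In the induced line against wild type 4 of 7 were called lower and 0 higher, namely miR-27b-3p, miR-24-3p, miR-23b-3p and miR-221-3p. The call of miR-221-3p (log2 fold change -1.18, edgeR adjusted p = 0.0432) was lost without any 1 of the induced, uninduced or wild type libraries (edgeR adjusted p = 0.0562 to 0.319) and with DESeq2 (0.113). That of miR-24-3p (log2 fold change -1.22, edgeR adjusted p = 0.0123) was lost without wild type A (0.0882) or induced B (0.197). miR-27b-3p, at 9508 ± 1095 CPM in the induced line and 25284 ± 4030 CPM in wild type (log2 fold change -1.41, edgeR adjusted p = 0.000643), was the most abundant.

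Of 18 listed miRNAs of fibroblasts and other mesenchymal cells, 12 were tested. The knockout had 2 higher and 1 lower than wild type, with a median log2 fold change of 0.25. Without TMM factors 5 were called higher and 0 lower. miR-21a-3p (log2 fold change 1.71, edgeR adjusted p = 0.0130) and miR-22-5p (log2 fold change 1.83, edgeR adjusted p = 0.00819) rose, and miR-152-3p, with 40 counts over all libraries, fell (log2 fold change -3.10, edgeR adjusted p = 0.0328). The call of miR-152-3p was lost without any 1 of wild type A, wild type B, knockout line 1, induced A or induced B (edgeR adjusted p = 0.0840 to 0.363), without TMM factors (0.0544) and with DESeq2 (0.180), and its log2 fold change was -1.62 without knockout line 1. That of miR-21a-3p was lost without wild type A (0.0528) or B (0.0649) or knockout line 2 (0.173) and with the 2 groups fitted alone (0.0536), and its log2 fold change was 0.47 without knockout line 2. Its CPM of 542 ± 457 in the knockout, against 162.5 ± 8.47 in wild type, shows that the knockout lines differed between themselves.

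In the induced against the uninduced line 0 of the 12 mesenchymal miRNAs were called higher and 2 lower, both arms of miR-21a. Neither call held when any single 1 of the 4 libraries compared was left out. The levels of this list summed to 69268 to 73163 CPM in the induced line, 60706 to 64407 in the uninduced line, 43618 to 44017 in the knockout and 43332 to 43398 in wild type, most of it miR-22-3p. miR-214-3p and miR-214-5p, a defining pair of mesenchymal cells, had 0 counts in every library. miR-199a-3p, transcribed with miR-214 in mesenchyme, had 36.1 ± 4.57 CPM in the induced line, 41.8 ± 6.38 in the uninduced line, 33.7 ± 26.4 in the knockout and 30.0 ± 2.13 in wild type, with no call in these comparisons. The separate row of miR-199b-3p had 47.4 ± 9.02, 52.7 ± 33.1, 25.1 ± 14.3 and 28.2 ± 9.70 CPM in the same groups, also with no call. How reads were divided between these rows is not given in the sources used here.

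Striated muscle miRNAs were near absent. Their 15 listed rows summed to 13.0 to 13.7 CPM in the induced line, 13.3 to 26.5 in the uninduced line, 5.03 to 15.0 in the knockout and 10.7 to 11.7 in wild type, and none passed the filter. Endothelial miR-126 rows summed to 1839 to 1974 CPM in the induced line, 1686 to 1763 in the uninduced line, 1212 to 1377 in the knockout and 2698 to 2737 in wild type. Of 3 tested, 2 were called lower in the knockout against wild type, miR-126a-5p (log2 fold change -1.18) and miR-126b-3p (-1.07). The third, miR-126a-3p, was not called (log2 fold change -0.34, edgeR adjusted p = 0.272). In induced against uninduced 0 were called. Blood cell miRNAs ran the other way. Their sum was 3777 to 3945 CPM in the induced line, 6367 to 6928 in the uninduced line, 5835 to 6499 in the knockout and 1847 to 1884 in wild type. The 4 tested were both arms of miR-142a and both arms of miR-150, so they do not stand for 4 separate hairpins. All 4 were called higher in the knockout, and 3 of 4 were called lower in the induced against the uninduced line. None of those 3 calls held when any single 1 of the 4 libraries of the AGO1 line was left out. miR-223-3p, miR-223-5p and miR-451a of that list had 0 counts throughout. Of 28 listed miRNAs of pluripotent cells, 23 were tested. In the knockout against wild type 6 were called higher and 8 lower, near the background of 25.5% and 32.2%. In the induced against the uninduced line 6 were called higher and 3 lower, beside a background of 21.1% and 7.79%. Some of these calls did not hold when a library was left out. The part of other cell types in the level of miR-143-3p was not tested.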

How the data were processed

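Small RNA libraries of 8 samples in 4 groups of 2 were analysed. The authors' table gives, for each mature miRNA, raw counts as deposited. Per the submitters' processing notes, Bowtie and the mm10 build were used, and no version is given there. How adapters, mismatches and multi-mapping reads were handled, and which miRNA annotation was used, is not given in the sources used here. Per the labels' protocols, a TruSeq small RNA kit and 1 µg of total RNA were used. The table has 2 header lines. The first was used, and 1 name of the second (a wild type library) did not match it.

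Of 1915 miRNAs, 901 had no count, and the 475 that passed filterByExpr held 99.9% of counts. The edgeR quasi-likelihood test (edgeR 4.0.16, R 4.3.3; 2-sided) used TMM factors and 1 fit of 8 libraries in 4 groups (4 residual degrees of freedom), with Benjamini-Hochberg adjustment over the 475. Calls have an adjusted p under 0.05. An approximate SE was derived from the log2 fold change and its F statistic (their ratio, with the root of F). The common biological coefficient of variation was 0.244. Replicate libraries differed by more than sampling noise in each group (chi-square over its degrees of freedom 13.8 to 44.3). The fit was tested on simulated data. Alternatives were DESeq2 1.42.0 (size factors and Wald test), no TMM factors, other filters, the 2 groups alone, leaving out each library, and a block for the letters A and B.

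The members and lists were chosen with earlier results of these data known. Named miRNAs are the members, those nearest in profile (5 for miR-143-3p, 3 for each miR-145a arm), and up to 4 called miRNAs of each list by mean CPM. Others, such as those at 0 and miR-382, were named after their values were seen. Sequences are from RefSeq, which had an entry for 4 of the 5 miRNAs nearest to miR-143-3p. Seed matches to the members were not analysed here.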

Additional observations from a re-analysis of the deposited data

How the results depend on the processing

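The sign of every log2 fold change of miR-143-3p and miR-145a-5p was the same in all 14 or 15 alternatives run for it, as was that of miR-145a-3p except for uninduced over knockout, where 12 of 14 kept it (-0.08 to 0.25). For miR-143-3p, knockout over wild type was -2.99 and induced over uninduced 2.58 without TMM factors, and induced over wild type ran from -0.85 to -0.68 with a library left out (-0.68 without induced B). With TMM factors dropped, the median of the 475 tested miRNAs became 0.16 for knockout over wild type and -0.17 for induced over uninduced, and the calls became 155 higher and 111 lower, against 121 and 153, and 83 higher and 64 lower, against 100 and 37. With a library left out the number of calls ran from 57 to 200 for induced against uninduced (main 137) and from 75 to 258 for induced against wild type (main 185). For uninduced against knockout, whose calls are not used, it was 0 in the edgeR fit of 8 libraries, 2 without TMM factors, 8 with DESeq2, 14 without a filter and 0 to 61 with a library left out. Of 64 CPM values of members under other scalings, 12 moved beyond the SD of their group. The 64 include those of miR-143-5p, which are 0 under every scaling and cannot move. The 5 miRNAs nearest to miR-143-3p were the same 5 without TMM factors. The letters A and B are not said to pair libraries, and differences of A minus B correlated by 0.081, -0.0104 and 0.235 between groups. With the letters as a replicate block miR-143-3p was 2.78 for induced over uninduced and -0.87 for induced over wild type, with 192 and 250 calls. The knockout lines carry numbers, not letters, so no block was run for them. Depth limits the miR-145a arms most, with 5 to 46 counts a library.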
